A study of Mus musculus with 12 samples.

Results

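The 10 genes described here belong to adenosine and purine signaling: Adora1, Adora2a, Adora2b, and Adora3 (the adenosine receptors), Entpd1 and Nt5e (cell-surface enzymes that break down nucleotides), Ada (adenosine deaminase), and P2rx4, P2ry2, and P2ry1 (receptors for nucleotides). They were chosen by name, and the high level of Adora3 at LPS 4 h was part of the choice, so that every comparison of these genes with the LPS 4 h libraries is given as a description, with no test. They are 10 of the 54119 genes summed from the deposited transcript estimates, and all 10 are among the 19150 genes that passed a filter on low counts, Adora3 only through its LPS 4 h libraries. RNA came from cerebral vessels isolated out of forebrain tissue of wild type C57BL6 mice, 8 to 12 weeks of age. The 4 groups of 3 libraries are PBS controls and mice taken 15 min, 30 min, or 4 h after LPS. LPS, the bacterial lipopolysaccharide, was given intraperitoneally in a dose of 10 mg/kg. Each library is a pool of 1 male and 1 female mouse, so single animals cannot be separated and sex cannot be examined.

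ATP and ADP leave stressed or injured cells and act on the P2 receptors, P2X being ion channels and P2Y being coupled to G proteins. CD39, made from Entpd1, turns ATP and ADP into AMP, and CD73, made from Nt5e, turns AMP into adenosine, which acts on the adenosine receptors until it is taken up by nucleoside transporters or deaminated by adenosine deaminase. In blood vessels these steps are known for their part in platelet aggregation, vessel tone, leukocyte adhesion, and barrier permeability.

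The libraries held 18.3 to 25.9 M fragments. Levels are given as CPM, fragment counts relative to the library total after TMM scaling, which corrects for the unequal makeup of the libraries. TPM, which also takes transcript length into account, is used where genes are compared with each other. The mean TMM factor was 0.717 for the LPS 4 h group and 1.04 to 1.17 for the others, so that scaling by library size alone lowered every log2 fold change between LPS 4 h and PBS by about 0.70. Summed endothelial markers were the highest of the 12 marker lists in every group (8394 to 8683 CPM in PBS and 5937 to 5990 CPM at LPS 4 h), and markers of pericytes, smooth muscle, fibroblasts, microglia, macrophages, astrocytes, neurons, and oligodendrocytes were also present. Fewer cells of a type and less RNA per cell cannot be told apart in these pooled tissue libraries.

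The promoter windows of the 4 members whose levels at LPS 4 h lay farthest from PBS are shown, since these are the genes on which the description turns. Each runs from 250 bases before to 50 bases after the RefSeq start, on build GRCm38.p6 and 5′ to 3′ on the strand of the gene, and capitals mark matches on either strand to the AP-1 motif TGANTCA or to the GC box GGGCGG (neighbouring GC boxes can run together). The windows are chr3:105904171-105904470 on the plus strand for Adora3, chr9:88327359-88327658 on the plus strand for Nt5e, chr7:101012004-101012303 on the minus strand for P2ry2 (the more upstream of its 2 RefSeq starts), and chr3:61002535-61002834 on the plus strand for P2ry1.
Adora3: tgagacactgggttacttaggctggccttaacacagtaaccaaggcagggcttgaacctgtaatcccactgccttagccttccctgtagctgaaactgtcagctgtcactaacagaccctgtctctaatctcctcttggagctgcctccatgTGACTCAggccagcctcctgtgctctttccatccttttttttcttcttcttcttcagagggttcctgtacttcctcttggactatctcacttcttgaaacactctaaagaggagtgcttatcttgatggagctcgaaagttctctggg
Nt5e: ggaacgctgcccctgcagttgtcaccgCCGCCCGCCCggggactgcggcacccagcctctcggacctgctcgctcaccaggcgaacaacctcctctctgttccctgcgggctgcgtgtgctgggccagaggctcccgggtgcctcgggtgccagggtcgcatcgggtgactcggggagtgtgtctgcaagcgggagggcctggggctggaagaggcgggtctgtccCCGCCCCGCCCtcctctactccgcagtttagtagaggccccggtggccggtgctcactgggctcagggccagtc
P2ry2: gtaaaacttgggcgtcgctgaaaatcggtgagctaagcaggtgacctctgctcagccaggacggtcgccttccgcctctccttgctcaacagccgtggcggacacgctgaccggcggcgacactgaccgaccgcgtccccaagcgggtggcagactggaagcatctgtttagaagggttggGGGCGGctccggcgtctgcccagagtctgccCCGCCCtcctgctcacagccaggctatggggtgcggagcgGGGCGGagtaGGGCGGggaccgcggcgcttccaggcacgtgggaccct
P2ry1: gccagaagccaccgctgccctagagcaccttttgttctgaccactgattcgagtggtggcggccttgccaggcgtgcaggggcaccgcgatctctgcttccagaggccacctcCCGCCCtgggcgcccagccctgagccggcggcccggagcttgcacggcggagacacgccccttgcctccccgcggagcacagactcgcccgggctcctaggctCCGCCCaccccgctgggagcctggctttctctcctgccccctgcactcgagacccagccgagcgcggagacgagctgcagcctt

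RefSeq windows were at hand for 9 of the 10 members, 12 windows in all. An AP-1 match was in 2 of the 12, that of Adora3 and the upstream window of Adora1, against 7.81% of the 32851 windows of all genes, and a GC box was in 8 of the 12 against 35.7%, counting both windows of P2ry2, which overlap and hold the same 4 GC boxes. Among the printed windows, that of Adora3 had a GC content of 48.3% and 1 CpG, while those of Nt5e, P2ry2, and P2ry1 had a GC content of 71.0%, 67.3%, and 70.7% and held 23, 28, and 25 CpGs. Neither the CRE motif TGACGTCA, present in 1.79% of all windows, nor the NF-kB consensus, present in 4.51%, had a match in the 12 windows. The GAS motif TTCNNNGAA, present in 8.30%, matched only in that of Ada. A match is a run of letters and not a measured binding site.

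At LPS 4 h Nt5e, which makes adenosine, stood 26.2 times as high as in PBS, P2ry2 8.72 times, and P2ry1 at 0.322 times its PBS level. These log2 differences were 4.70, 3.12, and -1.63 after TMM scaling and 4.00, 2.42, and -2.34 by library size alone. In the first 30 min a single member, P2ry2, rose past the test. Members were tested between PBS, LPS 15 min, and LPS 30 min in edgeR, against the null that the log2 fold change is at most 0.58, with Benjamini-Hochberg adjustment over all 19150 genes. The p-values rest on the spread between libraries within the groups, each library being a pool of mice. This spread was small (common biological coefficient of variation 0.052). Whether it holds all of the variation between animals was not tested. At LPS 15 min against PBS 0 of the 10 members passed, where 4.25% of all genes tested did. At LPS 30 min against PBS 1 of 10 passed, against 4.62% of all genes, and at LPS 30 min against LPS 15 min 0 of 10, against 4.76%. These shares are close to those of all genes and say nothing particular about the members. With no fold limit, 4, 5, and 8 of the 10 members passed in these comparisons, beside 38.6%, 36.9%, and 37.4% of all genes, and the further calls were changes of a log2 size of 0.63 or less. DESeq2 with the same fold limit also called 0, 1, and 0. The median log2 fold change of the members against PBS was 0.64 at LPS 4 h, -0.07 at LPS 30 min, and -0.10 at LPS 15 min, and that of all genes tested lay between -0.01 and 0.00 in the 3 comparisons. Nothing is read from the LPS 4 h median, since LPS 4 h was part of the choice. Scaling by library size alone also lowers each value in it by about 0.70.

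**Figure D1:**
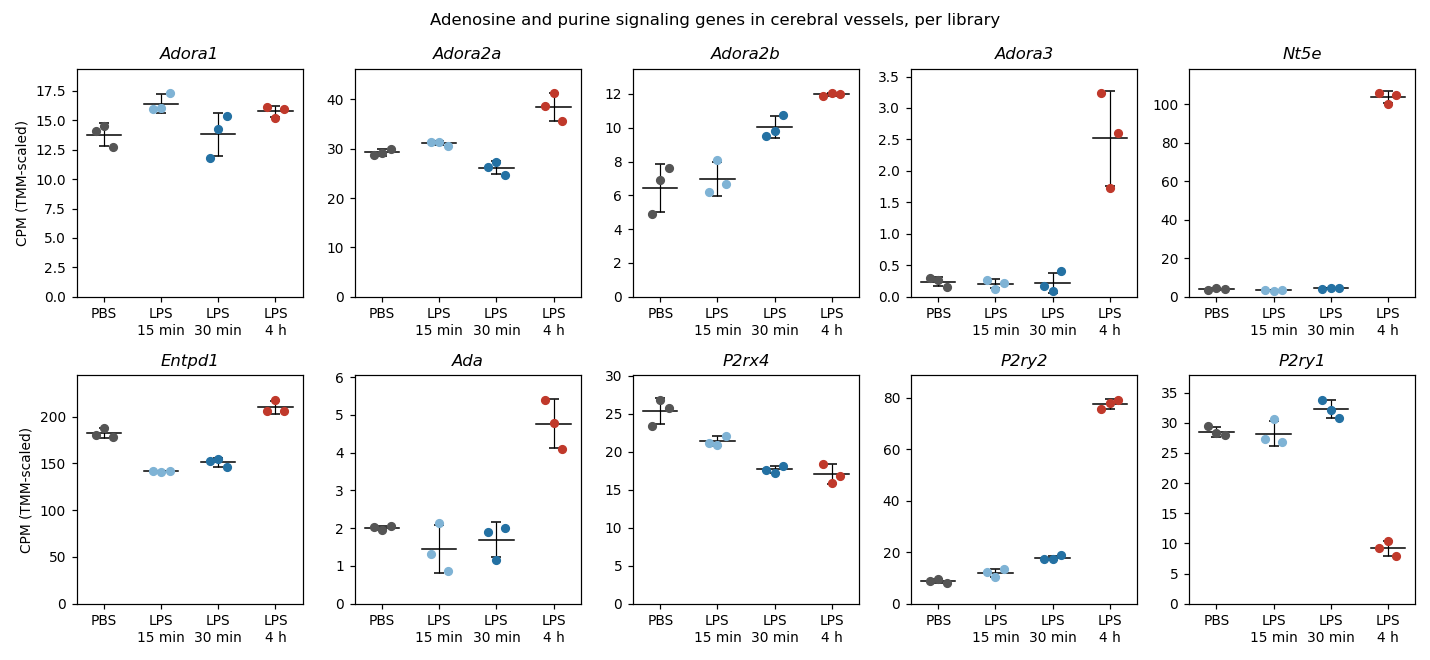
CPM (TMM-scaled, vertical axes from 0) of the 10 members in each of the 12 libraries, by group; points are libraries, the horizontal line is the mean, and the bar is ± 1 SD over 3 libraries. Nt5e lies between 2.76 and 4.69 CPM in the 9 libraries of PBS, LPS 15 min, and LPS 30 min and at 100 CPM or above at LPS 4 h, P2ry2 is higher in each later group, and P2ry1 is lowest at LPS 4 h.

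Nt5e (chromosome 9, 88327197 to 88372092, plus strand), which encodes CD73, had 3.37, 4.39, and 4.12 CPM in the PBS libraries. At LPS 15 min it had 3.49, 2.76, and 3.59 CPM, and at LPS 30 min 4.12, 4.6, and 4.69 CPM. The LPS 4 h libraries had 106, 100, and 105 CPM, a mean of 104 ± 3.1 (SD, n = 3) against 3.96 ± 0.53 in PBS. The early groups overlapped with PBS, whereas every LPS 4 h library lay above every other library. The ratio of the means was 26.2 and the log2 difference 4.70 (SE 0.09). The log2 fold change was -0.27 (SE 0.12) at LPS 15 min and 0.17 (SE 0.12) at LPS 30 min, neither past the test (edgeR, adjusted p = 1). Nearly all of its estimated RNA was of the protein-coding transcript, 92.8% to 98.3% of the gene's TPM at LPS 4 h. The annotated start of this transcript, base 88327197, lies upstream of the printed window, which begins at base 88327359. That window therefore does not cover the annotated start.

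Entpd1 (chromosome 19, 40612366 to 40741602, plus strand), which encodes CD39 and is known in brain from endothelium and microglia, was the most abundant member in every group. It had 180, 188, and 178 CPM in PBS, 142, 141, and 141 CPM at LPS 15 min, and 152, 155, and 146 CPM at LPS 30 min. All early libraries were below all PBS libraries, with log2 fold changes of -0.36 (SE 0.03) and -0.27 (SE 0.03), which lie inside the fold limit and did not pass the test (edgeR, adjusted p = 1 for both). With no fold limit they passed (edgeR, adjusted p = 3.1e-09 and 4.1e-07). The LPS 4 h libraries had 205, 218, and 206 CPM, all above PBS, a log2 difference of 0.20 (SE 0.03). This direction depended on the scale: the difference was -0.50 by library size alone and -0.18 where average transcript length entered the fit. The share of the gene's TPM in coding transcripts moved alongside, from 63.8% to 74.8% in the PBS libraries to 85.8% to 95.1% at LPS 4 h.

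Measured against Entpd1 inside each library, Nt5e stood at a TPM ratio of 0.412 ± 0.031 (SD, n = 3) at LPS 4 h. The PBS libraries stood at 0.0139 ± 0.0031, those of LPS 15 min at 0.0149 ± 0.0036, and those of LPS 30 min at 0.0191 ± 1.8e-05. Against Alpl, the tissue-nonspecific alkaline phosphatase that can also dephosphorylate AMP at the cell surface, the ratio was 0.00944 ± 0.0011 in PBS, 0.0178 ± 0.0016 at LPS 30 min, and 0.863 ± 0.076 at LPS 4 h. These ratios within a library do not change with the scaling between libraries. The ratio over Entpd1 also carries the change in the transcript estimates of Entpd1. Among its non-coding transcripts, that of 204 bases had a mean of 23.5 TPM in PBS and 0 at LPS 4 h.

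Ada (chromosome 2, 163726584 to 163750239, minus strand), which turns adenosine into inosine, was low throughout. PBS libraries had 2.02, 1.96, and 2.06 CPM, LPS 15 min libraries 1.32, 2.12, and 0.868 CPM, and LPS 30 min libraries 1.91, 1.16, and 2.01 CPM. The early groups overlapped with PBS, at log2 fold changes of -0.50 (SE 0.28) and -0.25 (SE 0.28), not past the test (edgeR, adjusted p = 1). At LPS 4 h it had 5.40, 4.79, and 4.10 CPM, above every other library, a log2 difference of 1.24 (SE 0.27), or 0.54 by library size alone.

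Adora3 (chromosome 3, 105870858 to 105908926, plus strand), a receptor known in mouse from mast cells and microglia, was the lowest member. It had 8, 8, and 4 fragments in the PBS libraries, 8, 3, and 6 at LPS 15 min, 4, 2, and 9 at LPS 30 min, and 42, 26, and 38 at LPS 4 h. In CPM these were 0.300, 0.270, and 0.153 in PBS and 3.24, 1.73, and 2.60 at LPS 4 h. The 9 libraries of the other groups overlapped and none exceeded 0.402 CPM, while every LPS 4 h library was above them. The ratio of the means to PBS was 10.5 and the log2 difference 3.35 (SE 0.50), between 3.11 and 3.56 when each library was left out in turn. The difference was 2.65 by library size alone and 1.84 in limma with 10 added to the deposited values, a scale that shrinks low genes. These values chose the set and are no finding of their own. LPS 15 min and LPS 30 min differed from PBS by -0.19 (SE 0.60) and -0.14 (SE 0.61) on the log2 scale (edgeR, adjusted p = 1). At 2 to 9 fragments a library a change of moderate size was not detectable at this depth, and the gene did not pass the filter when only the groups compared were fitted, so these values say little about the early times.

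The few fragments of Adora3 were split unevenly among its transcripts. The coding transcript whose start is the RefSeq start of the window printed above, was listed at 0 in the 3 PBS libraries and at 0.856, 0.522, and 0.591 TPM at LPS 4 h. A retained-intron transcript held 66.4% to 100% of the gene's TPM in PBS and 11.4% to 31.1% at LPS 4 h. The LPS 30 min libraries ranged from 0% to 58.2%, so a low share was not particular to LPS 4 h. Its level was 0.224 ± 0.054 TPM in PBS and 0.220 ± 0.048 TPM at LPS 4 h (SD, n = 3). Another coding transcript, which starts farther upstream, was listed at 0.605, 0, and 0.70 TPM at LPS 4 h, so the 3 libraries did not share its presence. With so few fragments these estimates are uncertain. Tmigd3, which shares 779 exonic bases with Adora3 on the same strand, had 0 to 2 fragments a library.

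**Figure D2:**
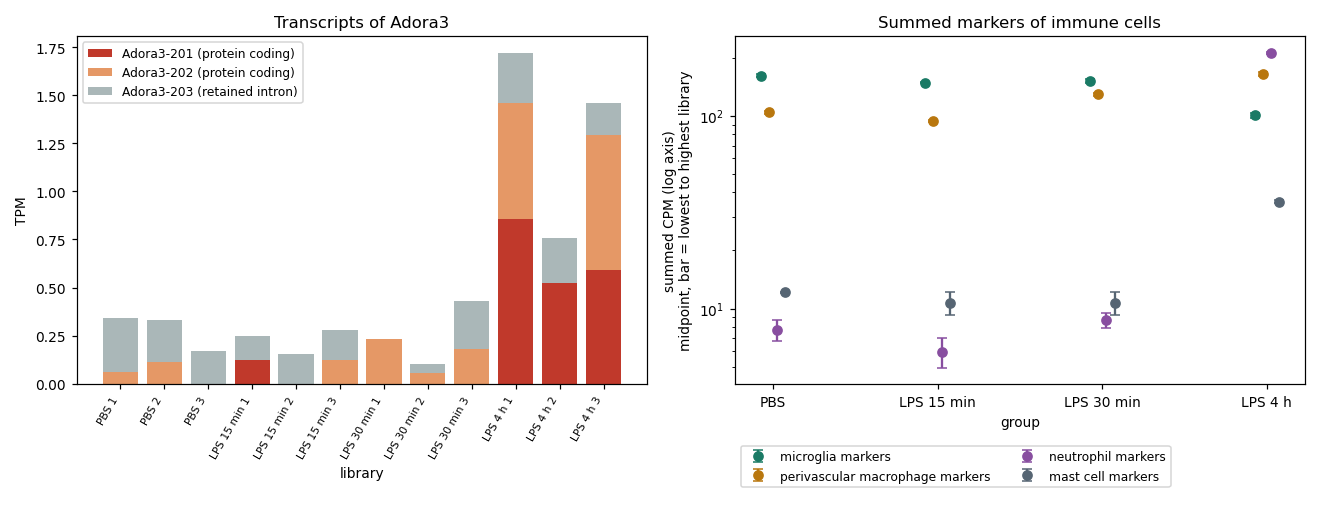
Left, TPM of the 3 annotated Adora3 transcripts in each of the 12 libraries, stacked; right, summed CPM of marker lists of immune cells by group on a log axis, with the bar from the lowest to the highest library. The coding transcript that starts at the RefSeq start appears in all 3 LPS 4 h libraries and in 1 of the other 9, and the neutrophil sum goes from 6.82 to 8.70 CPM in PBS to 208 to 214 CPM at LPS 4 h.

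Markers of immune cells moved in different directions over the same comparison. The summed level of the 8 microglia markers was 159 to 164 CPM in PBS and 97.2 to 103 CPM at LPS 4 h, with 4 of the 8 lower past the test and 0 higher. The 5 perivascular macrophage markers summed to 102 to 106 CPM in PBS and 161 to 169 CPM at LPS 4 h, 3 higher and 0 lower. The 7 neutrophil markers summed to 6.82 to 8.70 and 208 to 214 CPM, with all 6 that passed the filter higher. Among these, Retnlg (mean 0.264 CPM in PBS, 12.7 at LPS 4 h) and Mmp8 (0.109 and 10.6) passed the filter only through LPS 4 h libraries. Nothing is read from the calls of Retnlg and Mmp8. Of all genes tested, 19.1% were called higher and 13.9% lower. The 7 mast cell markers summed to 12.1 to 12.2 and 35.2 to 36.3 CPM. This was almost all Kit, which other cells also express and which alone of the 7 passed the filter. The other mast cell markers reached at most 0.496 CPM in a PBS library (Mcpt4) and 0.231 CPM in an LPS 4 h library (Tpsb2). The part of these cells in the level of Adora3 was not tested.

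The 5 genes most like Adora3 over the 12 libraries, by the smallest root mean square difference of centred log2(CPM + 0.1), were Gm37498, Gm9869, Gm15441, Macrod2os1, and Hcls1, at differences of 0.304 to 0.341 on the log2 scale and Pearson's r of 0.969 to 0.978. The correlation is a description over 12 libraries that share 4 groups. It mostly follows the high level of Adora3 at LPS 4 h, which was part of the choice, so nothing is read from it. Hcls1, a gene of blood-forming cells, had 7.55 ± 0.21 CPM in PBS and 56.0 ± 4.5 CPM at LPS 4 h (SD, n = 3). The other 4 had mean levels of 0.059 to 0.966 CPM in PBS.

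Adora2a (chromosome 10, 75316877 to 75334784, plus strand), a receptor that raises cAMP and relaxes vessels, was the most abundant adenosine receptor in every group. It had 28.7, 29.1, and 30.0 CPM in PBS, 31.4, 31.3, and 30.6 CPM at LPS 15 min, 26.4, 27.2, and 24.7 CPM at LPS 30 min, and 38.6, 41.3, and 35.6 CPM at LPS 4 h. The groups did not overlap, yet the early log2 fold changes of 0.09 (SE 0.06) and -0.16 (SE 0.06) did not pass the test (edgeR, adjusted p = 1), and the first was -0.03 where transcript length entered the fit. The LPS 30 min change passed with no fold limit (edgeR, adjusted p = 0.043). The log2 difference of 0.40 (SE 0.06) at LPS 4 h became -0.31 by library size alone.

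Adora2b (chromosome 11, 62248984 to 62266453, plus strand), a low-affinity receptor, had 4.87, 6.92, and 7.60 CPM in PBS and 6.17, 8.11, and 6.64 CPM at LPS 15 min. It had 9.54, 9.81, and 10.8 CPM at LPS 30 min, above all libraries of both former groups, and 11.9, 12.1, and 12 CPM at LPS 4 h. The log2 fold change at LPS 30 min was 0.63 (SE 0.15), which did not pass the fold-limited test (edgeR, adjusted p = 1) and passed with no fold limit (adjusted p = 0.0013). At LPS 4 h the log2 difference from PBS was 0.89 (SE 0.15), or 0.19 by library size alone.

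Adora1 (chromosome 1, 134199223 to 134235431, minus strand), a receptor that lowers cAMP, was close to PBS in every group by TMM scaling. It had 14.1, 14.5, and 12.7 CPM in PBS, 15.9, 16, and 17.3 CPM at LPS 15 min, 11.8, 14.3, and 15.4 CPM at LPS 30 min, and 16.1, 15.2, and 16 CPM at LPS 4 h. The log2 fold changes of 0.25 (SE 0.09) at LPS 15 min and 0.00 (SE 0.10) at LPS 30 min did not pass the test (edgeR, adjusted p = 1), and the log2 difference of 0.19 (SE 0.10) at LPS 4 h was -0.51 by library size alone. All LPS 15 min libraries lay above all PBS libraries, and the LPS 15 min change passed with no fold limit (edgeR, adjusted p = 0.040). Its main transcript held 74.4% to 90.0% of the gene's TPM in PBS and 34.1% to 60.6% at LPS 4 h. Mybph, on the opposite strand, shares 1162 exonic bases with Adora1 and had 3 to 33 fragments a library, and the library kit does not keep strand.

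Per length and within each library, Adora2a held 66.0% ± 2.3 (SD, n = 3) of the TPM of the 4 adenosine receptors in PBS, Adora2b 18.9% ± 3.1, Adora1 14.3% ± 2.0, and Adora3 0.873% ± 0.33. At LPS 30 min Adora2b held 29.5% ± 1.6 and Adora2a 55.1% ± 3.4. At LPS 4 h the shares were 57.6% ± 3.0 for Adora2a, 25.0% ± 1.1 for Adora2b, 12.1% ± 1.1 for Adora1, and 5.30% ± 1.9 for Adora3. By mean TPM Adora2a came first and Adora3 last in both groups. Adora2b and Adora1 overlapped in TPM in PBS, where Adora1 was the higher one in 1 of 3 libraries, and at LPS 15 min, so their order was not settled there.

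P2ry2 (chromosome 7, 100996568 to 101012866, minus strand), a receptor for ATP and UTP known from endothelium, was the member past the fold-limited test at LPS 30 min. The PBS libraries had 8.88, 9.58, and 8.21 CPM, those of LPS 15 min 12.5, 10.3, and 13.4 CPM, those of LPS 30 min 17.2, 17.4, and 18.7 CPM, and those of LPS 4 h 75.5, 77.9, and 79.2 CPM. Each group lay above the one before it with no overlap. At LPS 30 min it rose by 0.99 on the log2 scale (SE 0.09, edgeR, adjusted p = 0.00031), a ratio of mean CPM of 2.00, higher in 3 of 3 libraries, and the call held under all 16 alternatives (adjusted p at most 0.026). The changes of 0.44 (SE 0.09) from PBS to LPS 15 min and of 0.55 (SE 0.08) from LPS 15 min to LPS 30 min did not pass (adjusted p = 1 for both). Both passed with no fold limit (edgeR, adjusted p = 0.00039 and 1.3e-05). The log2 difference between LPS 4 h and PBS was 3.12 (SE 0.08), a ratio of 8.72.

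P2ry1 (chromosome 3, 61002795 to 61008982, plus strand), the ADP receptor known from platelets and endothelium, went the other way at LPS 4 h. It had 29.5, 28.3, and 27.9 CPM in PBS, 27.3, 30.6, and 26.8 CPM at LPS 15 min, 33.8, 32.1, and 30.8 CPM at LPS 30 min, and 9.17, 10.5, and 7.92 CPM at LPS 4 h. The early log2 fold changes were -0.02 (SE 0.07) and 0.18 (SE 0.07), not past the test (edgeR, adjusted p = 1), and the LPS 4 h libraries were all below the rest, at a log2 difference from PBS of -1.63 (SE 0.09). The TPM of P2ry2 relative to P2ry1 inside a library was 9.30 ± 0.91 (SD, n = 3) at LPS 4 h, against 0.355 ± 0.029 in PBS, 0.546 ± 0.10 at LPS 15 min, and 0.695 ± 0.077 at LPS 30 min. Beside this, 4 of the 6 endothelial markers were lower and 1 higher past the test at LPS 4 h, and 1 of the 5 platelet markers was higher. The part of these cells in the receptor levels was not tested. Gm37035, annotated antisense to P2ry1 over 992 exonic bases, had 0 to 14 fragments a library.

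P2rx4 (chromosome 5, 122707544 to 122729738, plus strand), an ATP-gated channel of endothelium and microglia, had 23.4, 26.8, and 25.7 CPM in PBS and 21.1, 20.9, and 22.1 CPM at LPS 15 min. LPS 30 min libraries had 17.6, 17.2, and 18.1 CPM and LPS 4 h libraries 18.4, 15.8, and 16.8 CPM. Both early groups were below PBS in every library, at log2 fold changes of -0.25 (SE 0.07) and -0.52 (SE 0.07), inside the fold limit (edgeR, adjusted p = 1). With no fold limit they passed (edgeR, adjusted p = 0.0081 and 4.9e-06). The last groups overlapped, and the log2 difference between LPS 4 h and PBS was -0.58 (SE 0.08), or -1.28 by library size alone.

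**Figure D3:**
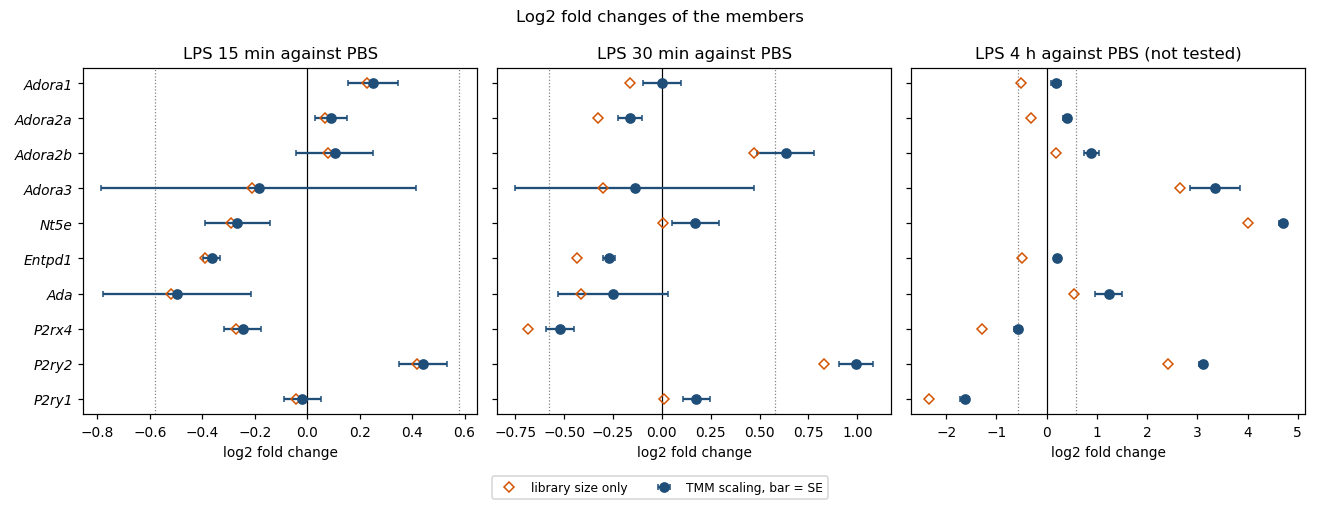
Log2 fold changes of the 10 members against PBS (horizontal axes, a different range in each panel); filled circles use TMM scaling with bars of ± 1 SE, open diamonds use library size only, and dotted lines mark the fold limit of 0.58. In the LPS 4 h panel, which was not tested, the diamonds of Adora1, Adora2a, and Entpd1 lie on the other side of 0 from their circles.

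Between LPS 4 h and PBS, all 10 members had no overlap between libraries, 8 higher and 2 lower by TMM scaling. This was so for 70.9% of all genes tested, and nothing is read from it, since the choice used this contrast. Adora1, Adora2a, and Entpd1 are lower by library size alone. In the deposited gene values the Entpd1 libraries of the 2 groups overlapped, with means of 4383 in PBS and 3852 at LPS 4 h.

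Ranked by TPM, the members kept Entpd1 at the top and Adora3 at the bottom in all 4 groups, and the middle of the order was rearranged at LPS 4 h. In PBS the order was Entpd1 (122 ± 17 TPM, SD, n = 3), P2rx4 (32.6 ± 3.8), Adora2a (21.6 ± 1.4), P2ry1 (15.3 ± 1.4), Adora2b, P2ry2, Adora1, Ada, Nt5e, and Adora3 (0.282 ± 0.095); only Adora2b and P2ry2 overlapped among neighbours. At LPS 4 h P2ry2 (25.8 ± 0.61 TPM) and Nt5e (23.9 ± 1.3 TPM) stood in places 2 and 3 behind Entpd1 (58.1 ± 1.5 TPM), Nt5e having been in place 9 in PBS, and P2ry1 (2.79 ± 0.27 TPM) had moved from place 4 to place 9. Among neighbours at LPS 4 h, Ada overlapped with both Adora1 and P2ry1, and Adora2a overlapped with P2rx4.

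**Figure D4:**
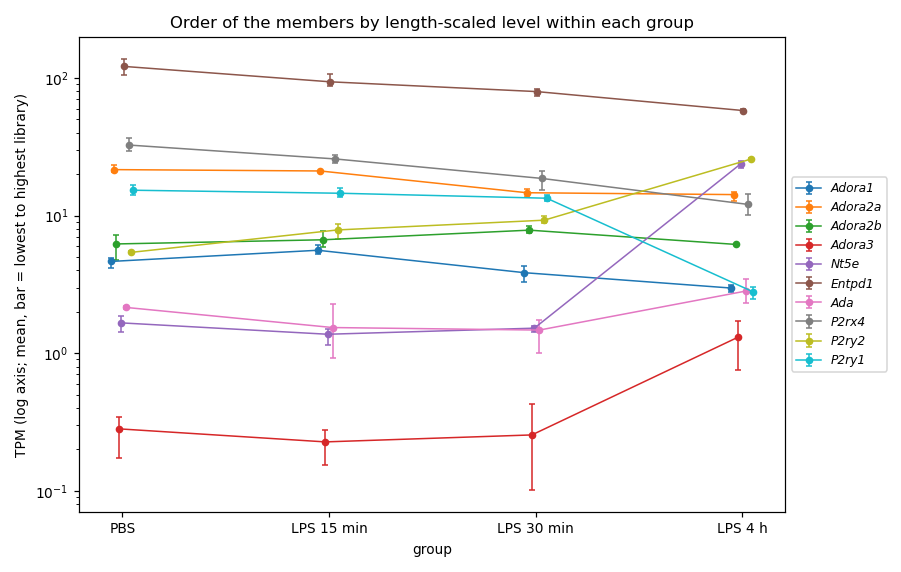
TPM of the 10 members by group on a log axis; points are means of 3 libraries, bars run from the lowest to the highest library, and lines join the groups of a gene. Nt5e and P2ry2 stand next to each other below Entpd1 at LPS 4 h, at 23.9 and 25.8 TPM, and P2ry1 goes from 15.3 TPM in PBS to 2.79 TPM. Levels of different groups carry the makeup of the libraries, and the order within a group does not.

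The wider purine pathway was followed in 40 further genes in 5 lists chosen by function, with earlier results of these data known. Of these genes 33 passed the filter, and P2rx2, P2ry4, Entpd8, Slc28a1, Ampd1, Nt5c1a, and Panx3 did not. These genes were tested in every comparison by the same fit. Against PBS, 15 of the 33 passed at LPS 4 h, 5 at LPS 30 min, and 2 at LPS 15 min. Of all genes tested, 4.62% passed at LPS 30 min and 4.25% at LPS 15 min. At LPS 4 h 7 of the 33 were higher and 8 lower, where 19.1% of all genes were called higher and 13.9% lower. By library size alone 25 passed, only 6 of them higher, so the split between higher and lower depended on the scaling. Their median log2 fold change was -0.25, 0.13, and 0.08.

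The 3 largest log2 fold changes of the 33 at LPS 4 h were those of Pnp, Ampd3, and Xdh, all intracellular purine enzymes. Pnp, purine nucleoside phosphorylase, which splits inosine and guanosine, had 52.9, 56.2, and 50.1 CPM in PBS, 58.4, 58.7, and 56.1 CPM at LPS 15 min, 106, 117, and 104 CPM at LPS 30 min, and a mean of 1428 ± 24 CPM (SD, n = 3) at LPS 4 h. It rose by 1.04 on the log2 scale at LPS 30 min (SE 0.04, edgeR, adjusted p = 1.3e-09) and by 4.75 at LPS 4 h (SE 0.04, adjusted p = 1.5e-28), and it was also higher at LPS 30 min than at LPS 15 min, by 0.92 (SE 0.04, adjusted p = 3.2e-07). Xdh, xanthine dehydrogenase, which makes uric acid, had 186 ± 4.7 CPM in PBS (SD, n = 3), 292 ± 9.2 after 15 min, 323 ± 2.6 after 30 min, and 1069 ± 5.2 after 4 h. It rose by 0.65 at LPS 15 min (SE 0.03, edgeR, adjusted p = 0.048), 0.79 at LPS 30 min (SE 0.03), and 2.52 at LPS 4 h (SE 0.03), and the LPS 15 min call was lost under 10 of 16 alternatives. Ampd3, an AMP deaminase, went from 26.0 ± 2.7 CPM to 279 ± 8.2 CPM at LPS 4 h, a rise of 3.42 (SE 0.05), and Ampd2 from 53.7 ± 3.7 to 103 ± 1.3 CPM, a rise of 0.93 (SE 0.05) that was 0.23 and not past the test by library size alone. Adk, adenosine kinase, which returns adenosine to AMP, fell by 0.70 at LPS 4 h (SE 0.07, edgeR, adjusted p = 0.049), a call lost under 9 of 16 alternatives. At LPS 4 h 4 of the 9 measured genes of this list were higher and 1 lower, and Adal, Ahcy, Nt5c2, and Hprt did not pass. The TPM ratio of Ada to Adk inside a library was 0.0571 ± 0.0043 in PBS and 0.251 ± 0.096 at LPS 4 h.

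Among the other ecto-enzymes 0 of 6 were higher and 2 lower at LPS 4 h. Alpl had 250, 260, and 264 CPM in PBS, 191, 182, and 190 CPM at LPS 15 min, 159, 160, and 150 CPM at LPS 30 min, and 76.5, 80.3, and 75.8 CPM at LPS 4 h. It fell by 0.72 on the log2 scale at LPS 30 min (SE 0.03, edgeR, adjusted p = 0.00065) and by 1.73 at LPS 4 h (SE 0.04), and Enpp1, which makes AMP and pyrophosphate from ATP, fell by 0.98 (SE 0.10) at LPS 4 h. Entpd2, Entpd3, Enpp3, and Acpp did not pass in any comparison with PBS.

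Nucleoside transporters at LPS 4 h were 1 higher and 2 lower of 6. Slc29a1, the equilibrative transporter ENT1, which clears adenosine from outside the cell, had 55.6, 55.7, and 48.7 CPM in PBS and 25.1, 26.0, and 27.7 CPM at LPS 4 h and fell by 1.02 on the log2 scale (SE 0.07, edgeR, adjusted p = 1.2e-06). Slc29a3, a lysosomal transporter, fell by 2.14 (SE 0.15). Slc28a2, a concentrative transporter, had 1.71 ± 0.36 CPM in PBS, 0.612 ± 0.16 at LPS 30 min, and 6.57 ± 0.44 at LPS 4 h (SD, n = 3), a fall of 1.47 (SE 0.34, adjusted p = 0.041), lost under 9 of 16 alternatives, and then a level 1.94 above PBS (SE 0.28), lost under 2 of 16. Slc29a2, Slc29a4, and Slc28a3 did not pass against PBS.

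Of the other P2 receptors, 9 passed the filter, and at LPS 4 h 2 were higher and 3 lower. P2ry6, a UDP receptor, rose by 1.53 on the log2 scale (SE 0.14) and P2rx5 by 2.34 (SE 0.20), from 1.84, 2.16, and 1.53 CPM to 11.3, 8.26, and 8.61 CPM. P2ry12, an ADP receptor that marks microglia, fell by 1.70 (SE 0.23), P2rx7, an ATP-gated channel of microglia and macrophages, by 1.38 (SE 0.12), and P2ry14, a receptor for UDP-sugars, by 0.92 (SE 0.07); P2ry12 is itself 1 of the microglia markers whose sum was lower. P2rx6 rose only at LPS 30 min among the comparisons with PBS, by 1.24 (SE 0.13, edgeR, adjusted p = 0.0001), from 6.86, 7.39, and 8.78 CPM to 18.8, 16.5, and 19.2 CPM, and at LPS 4 h it had 7.48, 6.93, and 10.4 CPM. P2rx3 and P2ry13 did not pass.

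P2rx1, an ATP-gated channel of smooth muscle and platelets, was the single gene of the 33 lower past the fold-limited test at LPS 15 min. It had 13.1, 15.0, and 14.6 CPM in PBS and 8.58, 6.12, and 6.23 CPM at LPS 15 min, a fall of 1.02 on the log2 scale (SE 0.13, edgeR, adjusted p = 0.0071), and it lost its call under 5 of 16 alternatives. The summed smooth muscle markers were 2346 to 2382 CPM in PBS and 1488 to 1508 CPM at LPS 15 min, with 3 of 4 lower past the test, and the platelet markers 24.0 to 26.2 and 13.8 to 17.7 CPM, with 1 of 5 lower. Their part in the level of P2rx1 was not tested.

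Of the ATP release genes, Panx1, Panx2, and Slc17a9 did not pass in any comparison. Panx1 had 3.64 ± 1.0 CPM in PBS and 6.65 ± 1.2 at LPS 4 h (SD, n = 3), a log2 fold change of 0.87 (SE 0.19, edgeR, adjusted p = 0.060).

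**Figure D5:**
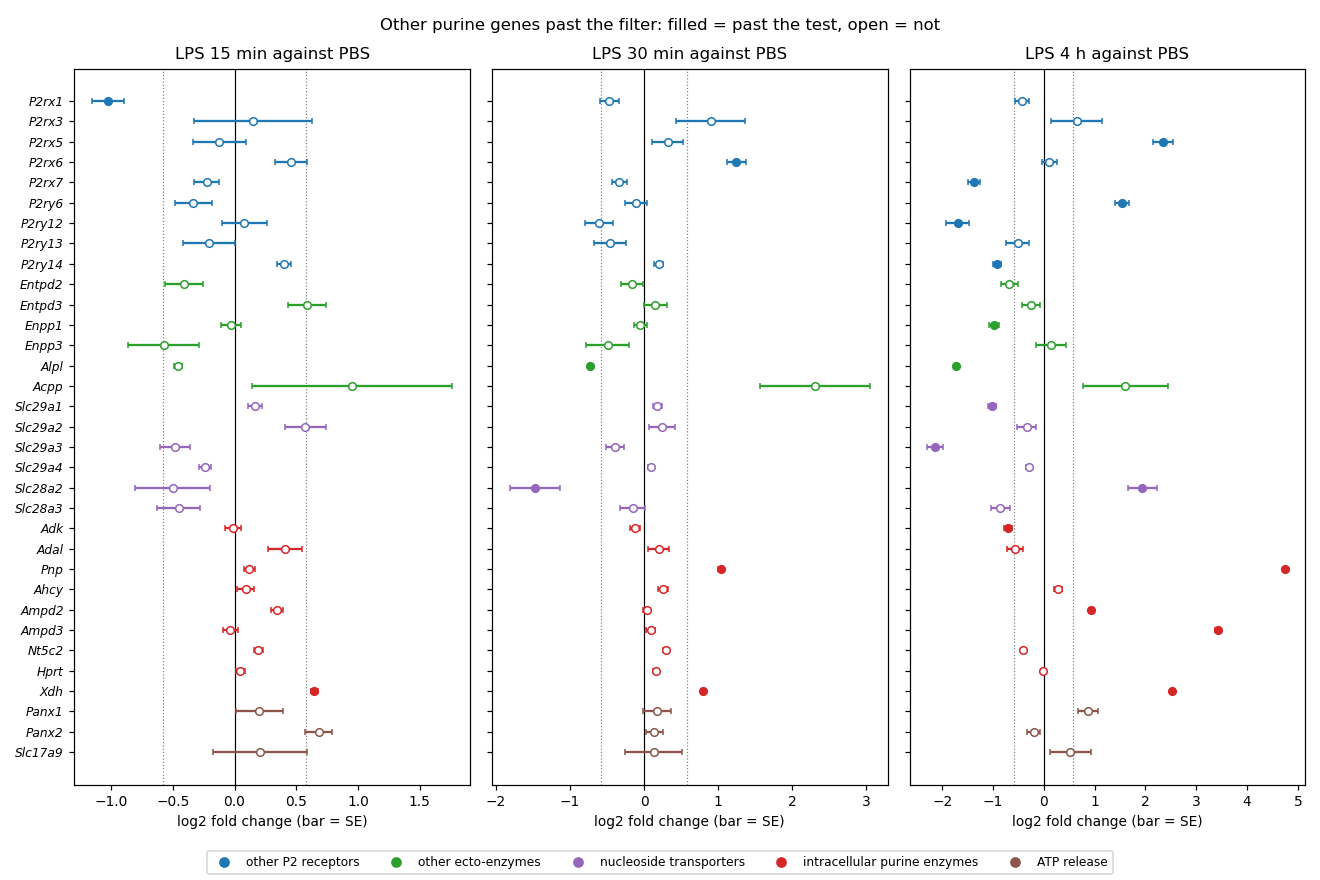
Log2 fold changes against PBS (horizontal axes, a different range in each panel) of the 33 other purine genes past the filter, coloured by list, with bars of ± 1 SE; filled circles passed the test and open circles did not, and dotted lines mark the fold limit of 0.58. Filled circles number 2, 5, and 15 from left to right, and Pnp lies farthest to the right at LPS 4 h, at 4.75.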

How the data were processed

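Per the labels and the study's methods, RNA of mouse cerebral vessels was amplified with SMART-Seq v4, made into Nextera XT libraries that do not keep strand, and sequenced paired-end. The authors quantified transcripts with Salmon (version 1.2.1) on GRCm38 and deposited, for each library, estimated counts and TPM per transcript, and for the series a table of gene values divided by DESeq2 factors, a signal with no unit. Estimated counts were summed per gene and rounded; 1096 of 140948 transcripts could not be joined to a gene (0.482% to 0.850% of fragments). Libraries held 18.3 to 25.9 M fragments.

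Genes past filterByExpr (minimum count 10, total 15, share 0.7) were fitted over all 12 libraries in edgeR 4.0.16 (R 4.3.3) with TMM factors, and tested by quasi-likelihood against a log2 limit of 0.58, with an adjusted p of 0.05 as threshold. Standard errors (SE) were taken from the F statistic with no limit. The members and lists were chosen with earlier results of these data known. Members were tested only between PBS, LPS 15 min, and LPS 30 min; other purine genes past the test in any comparison are named. The steps were tested on simulated data. Alternatives were DESeq2 1.42.0 (local dispersion trend, set after seeing the data because convergence of the default trend varied with the number of threads), limma 3.58.1 on the deposited table (plus 1 or 10), RLE or library-size scaling, no filter, no fold limit, a transcript length offset, only the groups compared, a replicate block, and leaving out each library. No protein sequences were used here.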

Additional observations from a re-analysis of the deposited data

Results flagged for a closer look

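Effects against PBS that differ between the LPS times, by a test of the difference itself (edgeR, Benjamini-Hochberg adjustment, adjusted p at most 0.022), were found for 16 of the 33 other purine genes between LPS 4 h and LPS 30 min. Of these, 7 were higher at LPS 4 h, where 17% of all genes tested were. By library size alone 24 passed, 6 of them higher. On the log2 scale Pnp was higher by 3.71, Slc28a2 by 3.41, Ampd3 by 3.33, P2rx5 by 2.02, Xdh by 1.73, P2ry6 by 1.65, and Ampd2 by 0.90. The other 9 were lower, where 11.9% of all genes tested were. Slc29a3 stood at -1.74, Slc29a1 at -1.20, P2rx6 at -1.14, P2ry14 at -1.12, P2ry12 at -1.08, P2rx7 at -1.04, Alpl at -1.01, Enpp1 at -0.93, and Nt5c2 at -0.71. The call was lost under 4 of 16 alternatives for P2ry12 (adjusted p up to 0.24), under 2 for Enpp1 (up to 0.107), and under 1 for Ampd2, where library size alone gave 0.36 (adjusted p = 1). Between LPS 30 min and LPS 15 min the difference was past the test for Pnp, by 0.92. The members were not tested against LPS 4 h, and groups of 3 libraries are too small for a check of single libraries.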

How the results depend on the processing

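The count of members past the test was 0, 1, and 0 for LPS 15 min against PBS, LPS 30 min against PBS, and LPS 30 min against LPS 15 min. It was 4, 5, and 8 with no fold limit and kept its value under the other alternatives run. The counts of other purine genes with no fold limit against PBS were 23 at LPS 4 h, 15 at LPS 30 min, and 17 at LPS 15 min, with 14 at LPS 30 min against LPS 15 min, and 26 at LPS 4 h against LPS 30 min. By library size alone the LPS 4 h count was 25. At LPS 15 min the count of 2 became 1 under DESeq2, RLE factors, library size only, no filter, the transcript length offset, the replicate block, both limma fits, and the fit of only the groups compared. With the default parametric trend, where it converged, DESeq2 called 0 there. Leaving out each library gave 0 to 2, with 0 without LPS 15 min replicate 2. The cause was not tested.

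Small log2 fold changes of members turned sign. Adora1 at LPS 30 min against PBS was -0.012 under DESeq2 and RLE factors, -0.16 by library size only, -0.0044 with no filter, -0.0021 with the replicate block, and -0.080 to 0.10 leaving out each library. Adora2a at LPS 15 min was -0.029 with the length offset and -0.044 and -0.043 under limma with 1 and 10 added. Adora3 at LPS 30 min against PBS was 0.11 with the length offset, 0.077 and 0.057 under those fits, and -0.87 to 0.24 leaving out each library. Adora3 at LPS 30 min against LPS 15 min was -0.091 by library size only and -0.69 to 0.43 leaving out each library, and Entpd1 there was -0.046 by library size only. Leaving out each library gave Adora2b -0.060 to 0.23, Adora3 -0.42 to 0.046, and P2ry1 -0.077 to 0.017 at LPS 15 min, and Ada -0.013 to 0.62 at LPS 30 min against LPS 15 min.

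Replicate numbers did not pair the samples: over 18 pairs of same-numbered libraries the correlation of deviations ran from -0.19 to 0.13, with 3 over 0.1. With the replicate block 0, 1, and 0 members passed, and 1, 5, and 14 other purine genes against PBS at the 3 times. At 2 to 9 fragments a library outside LPS 4 h, depth limits Adora3 most.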
